A study of Mus musculus with 5 samples.

Results

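The synaptic vesicle and SNARE genes described here were Snap25, Vamp2, Stx1a, Syt1, Syp, Syn1, Syn2 and Cplx2, and their members were all probe sets that the array's annotation assigns to one of these 8 symbols. There were 22 such probe sets among the 45101 on the array. Syn1 had 1 probe set and the other 7 genes had more than 1. Of the 22 probe sets, 19 reached the signal filter and were tested, and the other 3 are given as values without a test.

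Mouse brain RNA was exposed in vitro to the protein MA-Brent-1, and the RNA that bound was eluted and hybridised to Affymetrix arrays. MA-Brent-1 is an mRNA export factor of the REF/Aly kind, and 2 sample titles call it REFP2. There were 2 arrays of RNA eluted from the deiminated protein, 2 arrays of RNA eluted from the non-deiminated protein, and 1 array of the initial RNA taken without any binding step, called input here. Deimination converts arginine residues of a protein to citrulline. All 5 labels give brain as the source, the strain, sex and age of the animals are not given in the sources used here, and 1 title calls its sample a biological repeat. The REFP2 titles also carry sample numbers, without saying what was numbered. Nothing else states that the arrays came from separate binding reactions or animals. The p-values therefore reflect the spread among these arrays alone, which may be technical.

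Neurons release transmitter when synaptic vesicles fuse with the plasma membrane at the active zone. Fusion is driven by SNARE proteins, with VAMP2 on the vesicle and syntaxin-1A and SNAP-25 on the target membrane zipping into one helical bundle. Synaptotagmin-1 senses calcium and complexins clamp or promote the partly assembled bundle. Synaptophysin is an abundant vesicle membrane protein, and synapsins tether vesicles in a reserve pool. All of these proteins are made from mRNAs that are abundant in neurons.

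The deposited values were signal intensities on a linear scale, with a mean of 150 on every array after 2% of the probe sets were trimmed at each end. The input array stood apart from the other 4 over the whole array. Its median signal was 102, against 29.9 to 41.5 on the bound arrays, and the mean of 18 hybridisation control probe sets was 17.04 log2 units there, against 10.09 to 13.05. Across 4695 genes represented by exactly 2 probe sets, the correlation of their log2 signals was 0.0564 on the input array and 0.312 to 0.346 on the bound arrays. The ratio of 3' to 5' signal for Gapdh was 2.71 on the input array and 17.4 to 31.9 on the bound arrays, whereas the same ratio for Actb was 234 on input and 29.8 to 55.6 on the bound arrays. Every comparison with input below rests on that 1 array, which was assumed to vary like the bound ones, and the part of these differences in the results was not tested.

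The comparison of bound RNA with input asks which brain RNAs were enriched on the protein. Of the 19 tested probe sets, 11 were brighter on the bound arrays than on input and 6 were dimmer, at adjusted p under 0.05 with limma. Over all 27022 probe sets tested, 26.8% were called higher and 29.8% lower, or 56.6% in either direction. The 11 higher probe sets covered 7 genes, all but Syn1, and the 6 lower ones covered Stx1a, Syt1, Cplx2 and Syn2. Each of those 4 genes therefore had probe sets called in both directions. All 4 bound arrays lay above input in 11 of the 19 and below it in 6, as they did in 39.1% and 45.6% of all probe sets tested. The median difference of the 19 was 1.49 on the log2 scale, beside -0.20 over all probe sets tested.

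Differences are given on the scale of log2(signal + 4.18), which understates the change of dim probe sets. The value after ± is the standard error that limma gave, and intervals are 95% intervals. The signals of each probe set on the 5 arrays are given below in the order deiminated 1 and 2, non-deiminated 1 and 2, and input.

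**Figure D1:**
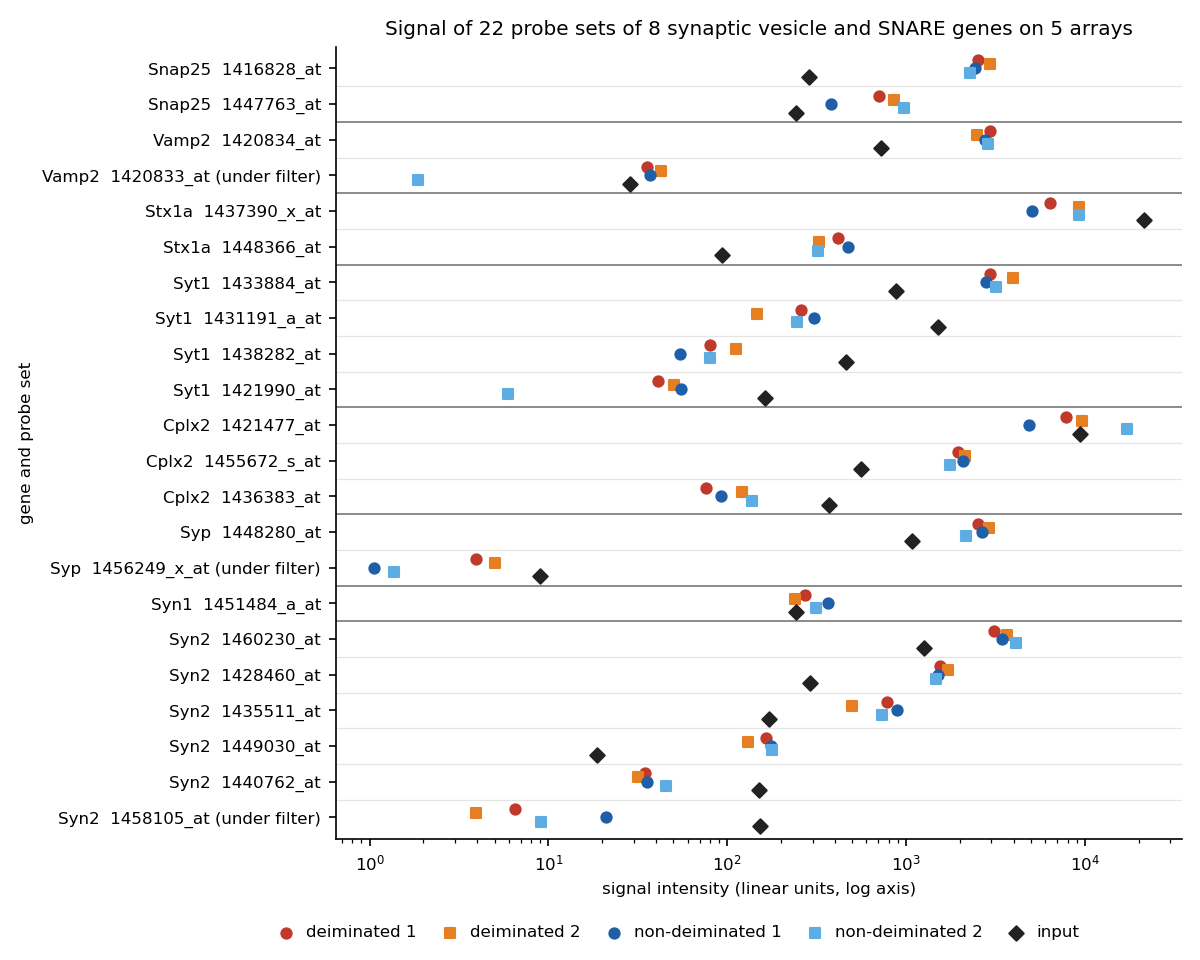
Signal intensity (log axis, linear units) of all 22 probe sets of the 8 genes, with 1 point for each array; horizontal lines separate genes, and the 3 probe sets marked as under the filter were not tested. The black diamonds of the input array lie to the left of all 4 bound arrays for 11 probe sets and to the right of them for 8.

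Snap25 encodes SNAP-25, the target membrane SNARE that gives 2 helices to the bundle, and 1 of its 2 probe sets had the largest rise of the group on the deposited scale. Probe set 1416828_at read 2520.2 and 2938 with the deiminated protein, 2417 and 2279 with the non-deiminated protein, and 288 on input. All 4 bound arrays lay far above input and within 1.29-fold of each other. The difference was 3.12 ± 0.35 (n = 4 bound arrays and 1 input array; limma adjusted p = 2.1e-05), an 8.68-fold rise. After quantile normalisation it had 3.05, below Syn2 1449030_at with 3.90 and Stx1a 1448366_at with 3.09. The other Snap25 probe set, 1447763_at, read 707, 853, 379.95 and 978 on the bound arrays and 242 on input. Its bound values also lay above input but were more spread, and the rise was 1.49 ± 0.45 (adjusted p = 0.0138). Without the variance trend it was not called (adjusted p = 0.0751). Snap25 was the only member gene with 2 or more tested probe sets in which all of them were called in the same direction.

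Vamp2 encodes the vesicle SNARE, synaptobrevin-2. Its probe set 1420834_at read 2934, 2505, 2777 and 2877 on the bound arrays and 722 on input. These were among the most even bound values of the group, and the rise was 1.93 ± 0.36 (adjusted p = 0.000997), or 3.82-fold. The other Vamp2 probe set, 1420833_at, lay under the filter. It read 35.6, 42.6, 36.7 and 1.87 on the bound arrays and 28.6 on input, with the low value on non-deiminated replicate 2.

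Stx1a encodes syntaxin-1A, the other target membrane SNARE, and its 2 probe sets were called in opposite directions. Probe set 1448366_at read 416, 326, 471 and 322 on the bound arrays and 93.5 on input. All bound values lay above input, with a rise of 1.97 ± 0.38 (adjusted p = 0.00125). Probe set 1437390_x_at, whose suffix marks probes that may also match other transcripts, read 6414, 9212, 5037 and 9229 on the bound arrays and 21251 on input. All bound values lay below input, by -1.55 ± 0.54 (adjusted p = 0.0264). This lower call was lost without deiminated replicate 1 (adjusted p = 0.208) and without deiminated replicate 2 (adjusted p = 0.11). It was also lost with the protein name in the title as a block (adjusted p = 0.126) and without the signal filter (adjusted p = 0.0501), and the difference was 0.01 when arrays were centred on their medians.

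Syt1 encodes synaptotagmin-1, the calcium sensor of fast release, and had 1 probe set called higher and 3 called lower. The higher one, 1433884_at, read 2931, 3967, 2787 and 3191 on the bound arrays and 883 on input. Its rise was 1.85 ± 0.38 (adjusted p = 0.00183), or 3.60-fold. After quantile normalisation the rise was 0.65 and was not called (adjusted p = 0.0833). Probe set 1431191_a_at, whose suffix marks several transcripts of one gene, read 257, 147, 304 and 244 on the bound arrays and 1499 on input. It fell by 2.68 ± 0.39 (adjusted p = 0.000168), the largest fall among the tested probe sets. Probe set 1438282_at read 79.8, 111, 54.5 and 79.9 against 463 on input and fell by 2.49 ± 0.48 (adjusted p = 0.00117). The last, 1421990_at, read 41.0, 50.6, 54.9 and 5.93 against 163 on input and fell by 2.26 ± 0.87 (adjusted p = 0.0415). This call was lost with the pseudocount divided by 4 (adjusted p = 0.0572), without the filter (adjusted p = 0.0591) and without the variance trend (adjusted p = 0.0723). It was also lost after quantile normalisation (-1.03, adjusted p = 0.357) and median centring (-0.77, adjusted p = 0.511). Its wide error goes with the low value on non-deiminated replicate 2, the array on which the dim Vamp2 probe set was also low.

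Cplx2 encodes complexin-2, a small protein that binds the assembled SNARE bundle, and its 3 probe sets behaved in 3 ways. Probe set 1455672_s_at, whose suffix marks probes shared by several transcripts, read 1949, 2138, 2091 and 1766 on the bound arrays and 563 on input. It rose by 1.81 ± 0.35 (adjusted p = 0.00121). Probe set 1436383_at read 75.6, 121, 92.0 and 138 on the bound arrays and 371 on input, and fell by 1.79 ± 0.47 (adjusted p = 0.00669). Probe set 1421477_at was bright on all arrays, with 7783, 9564, 4851 and 17249.9 on the bound arrays and 9377 on input. Bound and input overlapped there, and the difference of -0.08 ± 0.64 (-1.46 to 1.30) did not pass (adjusted p = 0.924). Under median centring it had 1.49 (adjusted p = 0.0209).

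Syp encodes synaptophysin, and its probe set 1448280_at read 2516, 2900.5, 2649.8 and 2159 on the bound arrays against 1081 on input. The rise was 1.23 ± 0.37 (adjusted p = 0.0134), the smallest among the called members. It was not called after quantile normalisation, where the difference was 0.07 (adjusted p = 0.867), or without deiminated replicate 2 (adjusted p = 0.0662). It was not called either with the protein name as a block (adjusted p = 0.0509) or without the variance trend (adjusted p = 0.0523). The other Syp probe set, 1456249_x_at, was near the bottom of every array, with 3.93, 5.01, 1.06 and 1.36 on the bound arrays and 9.02 on input.

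The synapsins split. Syn1 encodes synapsin-1, and its 1 probe set, 1451484_a_at, read 271, 239, 365 and 315 on the bound arrays and 241 on input. The input value lay between the deiminated ones, and the difference of 0.28 ± 0.36 (-0.50 to 1.07) did not pass (adjusted p = 0.521). With median centring it had 1.81 and was called (adjusted p = 0.0143).

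Syn2 encodes synapsin-2 and was the member with the most probe sets, 6, of which 4 were called higher, 1 was called lower and 1 lay under the filter. Probe set 1449030_at read 164, 129.9, 175 and 177 on the bound arrays and 18.8 on input, a rise of 2.84 ± 0.47 (adjusted p = 0.000405). It was the only tested member whose input signal lay under the filter level, so it passed the filter through its bound signals. Probe set 1428460_at read 1552, 1721, 1511 and 1478 on the bound arrays and 289 on input, and rose by 2.42 ± 0.34 (adjusted p = 0.00011). Those 4 bound values were the most alike of any member. Probe set 1435511_at read 777, 496, 894 and 733 against 170.1 on input and rose by 2.03 ± 0.37 (adjusted p = 0.00077). The brightest, 1460230_at, read 3098, 3679.99, 3436 and 4103 against 1263 on input, and its rise of 1.49 ± 0.39 (adjusted p = 0.0064) was the smallest of the 4. After quantile normalisation that rise was 0.33 and was not called (adjusted p = 0.343).

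The remaining Syn2 probe sets had lower signals on the bound arrays than on input. Among the non-control probe sets, 1440762_at ranked at the 46.0 to 53.2 percentile on the bound arrays and at 60.8 on input. Probe set 1458105_at ranked at 15.0 to 42.2 and at 61.5. Probe set 1440762_at read 34.9, 31.6, 35.5 and 45.2 on the bound arrays and 150.5 on input, and fell by 1.93 ± 0.64 (adjusted p = 0.0215). After quantile normalisation it had -0.58 and was not called (adjusted p = 0.39). Probe set 1458105_at, under the filter, read 6.49, 3.96, 20.9 and 9.14 on the bound arrays and 153 on input.

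**Figure D2:**
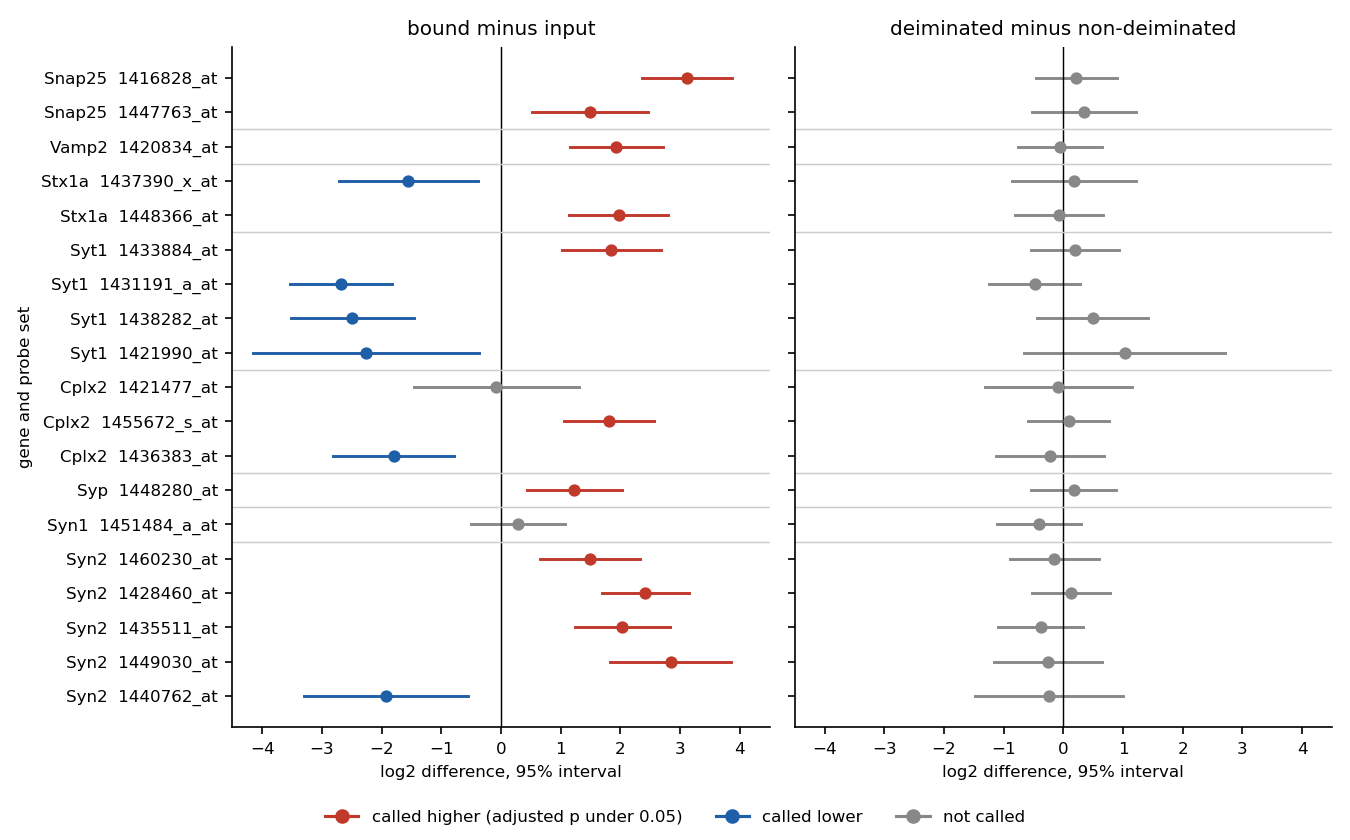
Log2 differences (points) with 95% intervals (bars) for the 19 tested probe sets, for bound minus input on the left and deiminated minus non-deiminated on the right; red and blue mark probe sets called higher and lower with limma at adjusted p under 0.05, and grey those not called. On the left, 11 probe sets are red and 6 blue, and Stx1a, Syt1, Cplx2 and Syn2 hold both colours, whereas on the right all 19 are grey.

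Probe sets of one gene called in opposite directions were counted over the whole array as well. Among the 5643 genes with at least 2 tested probe sets, 23% had at least 1 probe set called higher and 1 called lower, against 4 of the 5 such members. The share rose with the number of tested probe sets, from 13.6% of genes with 2 to 29.3% with 3, 40.8% with 4 and 62.1% with 5 or more. Of the members with 2 tested probe sets, Stx1a was called in both directions and Snap25 was not. Cplx2 with 3, Syt1 with 4 and Syn2 with 5 were all called in both directions. The positions of the probes on these transcripts were not analysed here.

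The ratio of 2 probe sets on the same array does not change with a factor that scales that array, so it was set beside the differences. The pairs were those with the highest and the lowest difference in each of the 4 genes, chosen after their values were seen, and no test was made. A higher ratio on the bound arrays was fixed by that choice, and Syn2 1449030_at passed the filter through its bound signals, so the ratios show sizes alone. For Syt1, the ratio of 1433884_at to 1431191_a_at was 11.4, 27.0, 9.17 and 13.1 on the bound arrays and 0.589 on input. For Cplx2, 1455672_s_at over 1436383_at gave 25.8, 17.7, 22.7 and 12.8 on the bound arrays and 1.52 on input. For Syn2, 1449030_at over 1440762_at gave 4.71, 4.11, 4.93 and 3.91 against 0.125. For Stx1a, 1448366_at over 1437390_x_at gave 0.0649, 0.0354, 0.0935 and 0.0349 against 0.0044.

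Ranks within each array gave a further view that scaling does not touch. The first Snap25 probe set ranked at the 97.7 to 98.3 percentile of the non-control probe sets on the bound arrays and at 83.9 on input. Stx1a 1448366_at ranked at 87.0 to 89.7 on the bound arrays and at 48.1 on input. Syn2 1449030_at ranked at 74.6 to 79.5 and at 20.1, the widest gap of the group. By contrast, Vamp2 1420834_at was at 97.9 to 98.3 and 96.7, and Syn2 1460230_at at 98.3 to 98.7 and 98.2, so these bright probe sets were near the top of every array. For Syp 1448280_at the bound ranks of 97.6 to 98.2 included the input rank of 97.9. Among the lower probe sets, Syt1 1431191_a_at was at 76.5 to 85.6 on the bound arrays and 98.5 on input, and Syt1 1438282_at at 61.2 to 72.0 and 93.5. Syn1 ranked at 83.3 to 87.4 on the bound arrays and at 78.4 on input.

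**Figure D3:**
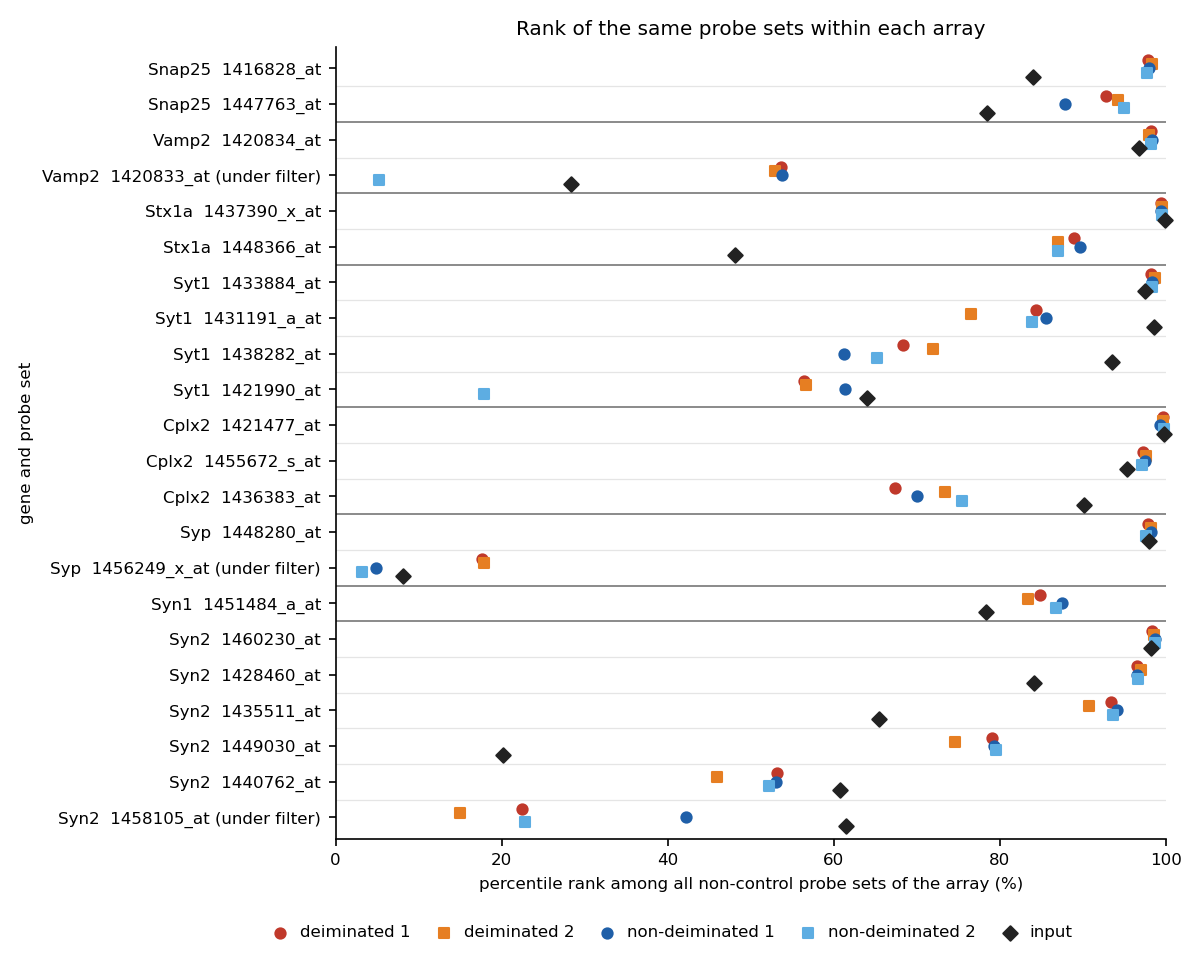
Percentile rank of the same 22 probe sets among all non-control probe sets of each array, with 1 point for each array. The input diamonds of Snap25 1416828_at (83.9), Stx1a 1448366_at (48.1) and Syn2 1449030_at (20.1) lie well to the left of the bound arrays, and those of Syt1 1431191_a_at (98.5) and 1438282_at (93.5) to the right.

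The scaling between arrays decided how many of the lower probe sets were called. When every array was centred on its median, the median difference of all probe sets went from -0.20 to 1.31, and 13 members were called higher and 0 lower. That setting called 13794 of all 27022 probe sets in either direction. Quantile normalisation moved that median to 0.50 and left 8 members higher and 4 lower. These were 12 of the 19, beside 16278 of all 27022 probe sets called in either direction. Scaling to the hybridisation controls moved it to 4.33, and limma then called 0 members and 101 of all 27022 probe sets. Leaving that last setting aside, 7 probe sets were called higher under all 13 other alternatives, namely Snap25 1416828_at, Vamp2 1420834_at, Stx1a 1448366_at, Cplx2 1455672_s_at and Syn2 1428460_at, 1435511_at and 1449030_at. Over those alternatives Snap25 1416828_at had differences of 3.05 to 4.65, and its highest adjusted p was 0.00368. Syn2 1449030_at was kept through its bound signals. Every alternative used the same input array, so agreement among them does not test that array.

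Each bound group was also set against input by itself. Both comparisons use the same input array, so they are not independent. For deiminated minus input, 11 members were called higher and 4 lower, where 24.9% and 26.6% of all probe sets were called, or 51.5% in either direction. For non-deiminated minus input the counts were 11 and 6, with 24.7% and 25.7% of all probe sets, or 50.5% together. Stx1a 1437390_x_at and Syt1 1421990_at were the members called in the second comparison and not in the first. The former had -1.47 (adjusted p = 0.0524) for deiminated and -1.64 (adjusted p = 0.0347) for non-deiminated RNA, and the latter -1.75 (adjusted p = 0.14) and -2.77 (adjusted p = 0.0293). Tested directly, neither differed between the bound groups at the threshold (adjusted p = 0.9999 with limma for each). Snap25 1416828_at had 3.22 and 3.01, Vamp2 1420834_at 1.90 and 1.96, and Syt1 1433884_at 1.94 and 1.75.

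Whether deimination changed which RNAs bound was read from the deiminated arrays against the non-deiminated ones. No difference passed among the members. With limma, 0 of the 19 tested probe sets were called and 0 had an unadjusted p under 0.05, where 0% of all 27022 probe sets were called and 356 had an unadjusted p under 0.05. The median difference of the members was -0.06, with 9 positive and 10 negative, beside -0.01 over all probe sets tested. Every adjusted p among the members was 0.9999.

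By role, the SNAREs had differences in both directions. The largest among them was 0.35 ± 0.40 (-0.52 to 1.22) for Snap25 1447763_at, where the groups overlapped and the difference ran from -0.33 to 1.02 with each bound array left out. Snap25 1416828_at had 0.21 ± 0.31 (-0.47 to 0.89; n = 2 and 2), and both of its deiminated values lay above both non-deiminated ones. Vamp2 1420834_at had -0.06 ± 0.32 (-0.76 to 0.64), and the groups overlapped. Stx1a 1448366_at had -0.08 ± 0.34 and 1437390_x_at had 0.17 ± 0.48.

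Among the proteins that time release, Syt1 1433884_at had 0.19 ± 0.34 (-0.55 to 0.93). Syt1 1421990_at had the largest difference of the group, 1.02 ± 0.78 (-0.66 to 2.71), and it was -0.25 without non-deiminated replicate 2. Cplx2 1455672_s_at had 0.09 ± 0.31 (-0.59 to 0.76).

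Among the vesicle proteins, Syp 1448280_at had 0.18 ± 0.33 (-0.54 to 0.89). Syn1 had -0.41 ± 0.32 (-1.11 to 0.29), and its deiminated values of 271 and 239 lay below the non-deiminated 365 and 315. The 5 tested Syn2 probe sets ran from -0.38 to 0.13, with 4 of them negative. Groups did not overlap for 5 of the 19 members, or 26.3%, against 24.1% of all probe sets. The 95% interval lay within 2-fold in either direction for 8 of the 19 and within 4-fold for 18, so a 2-fold difference lay inside the interval of the other 11. Over all probe sets tested, the interval lay within 2-fold for 24.2%.

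The 4 bound arrays differed among themselves in the level of the hybridisation controls, from 10.09 on non-deiminated replicate 1 through 10.60 on deiminated replicate 1 and 12.60 on deiminated replicate 2 to 13.05 on non-deiminated replicate 2. Each group thus held an array with a lower and an array with a higher level. In 3 of the 19 tested members the signals of the bound arrays followed exactly that order, as they did in 10.2% of all tested probe sets. These were Cplx2 1421477_at, Stx1a 1437390_x_at and Snap25 1447763_at. One tested member, Stx1a 1448366_at, followed the opposite order, as did 7.03% of all tested probe sets. The part of the control level in these orders was not tested.

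Around the 8 genes, 154 others of the synaptic vesicle pathway were listed by role, and 139 had a probe set that reached the filter. With the probe set of highest mean signal standing for each gene, 77 were called higher on the bound arrays than on input, 15 were called lower and 47 were not called. Each direction is that of 1 probe set. Other probe sets of the same genes are not given and may differ in direction, as they did among the members. Nsf, for example, had 4 probe sets and Nrxn3 had 5. Of the 77, 13 had an input signal under the filter level of 25.5, so they reached the filter through their bound signals, and their rises are part of how they were kept. Over all 13055 genes, 31.6% were called higher and 24.8% lower. The lists are given at the deposited scaling alone. Median centring moved the median difference of all probe sets from -0.20 to 1.31 and left 0 members called lower. Its effect on these lists was not tested. Between deiminated and non-deiminated protein, limma called 0 of the 139.

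Of 30 other SNAREs, 18 were called higher and 5 lower, with a median of 1.62. The rises were led by the endosomal and Golgi syntaxins Stx16 at 5.72 ± 0.38, Stx12 at 4.99 and Stx8 at 4.76. Their input signals were 22.2, 14.2 and 12.01, under the filter level, so they were kept through their bound signals and the sizes depend on the pseudocount. Snap23, the relative of SNAP-25 found in most tissues, had -4.28 ± 0.74, with 20.3, 20.0, 13.5 and 45.3 on the bound arrays and 518 on input, and it was kept through its input signal. Gosr1 had -1.90 and Snap47 -1.50.

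Of 19 genes for SNARE assembly and priming, 13 were called higher and 1 lower, with a median of 1.46. Nsf, the ATPase that takes used SNARE bundles apart, read 3065, 3399, 3232 and 2847 on the bound arrays and 198 on input, a rise of 3.95 ± 0.36 (limma adjusted p = 3.3e-06). Snapin, which binds SNAP-25, rose by 3.87 and the priming factor Cadps2 by 3.43. Snapin read 8.98 on input and was kept through its bound signals. Stxbp2 had -1.48.

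Of 18 genes, mostly synaptotagmins, listed under the label other calcium sensors, 9 were called higher and 2 lower, with a median of 0.89. Whether each of these proteins senses calcium was not tested, so the label does not give their function. Syt16 rose by 4.16, Sytl2 by 4.001 and Syt11 by 3.03. Sytl2 read 18.4 on input and was kept through its bound signals of 240.5 to 602. Syt8 had -3.65 and Syt13 -1.41.

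Of 28 other vesicle proteins, 13 were called higher and 3 lower, with a median of 0.78. Atp6v1b2, a subunit of the proton pump that acidifies vesicles, rose by 3.58, Svop by 3.19 and Scamp1 by 3.10. Svop read 23.6 on input, also under the filter level. Syn3, the third synapsin, had -1.51 ± 0.43, with 139, 105, 122 and 189 on the bound arrays and 394 on input. The monoamine transporter Slc18a1 had -2.90 and Syngr2 -1.39.

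Of 18 active zone genes, 8 were called higher and 2 lower, with a median of 0.81. The adhesion protein gene Nrxn3 rose by 6.48 from an input signal of 10.9, Erc1 by 2.79 and Rims3 by 2.41, while Ppfia1 had -2.18 and Rimbp2 -1.85. Nrxn3, and Erc1 with 15.3 on input, were kept through their bound signals. Of 26 genes of vesicle endocytosis, 16 were called higher and 2 lower, with a median of 1.44. The clathrin adaptor Snap91 rose by 3.12, the lipid phosphatase Synj1 by 2.99 and Eps15 by 2.84, while Sh3gl1 had -3.50 and Ston2 -1.68.

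**Figure D4:**
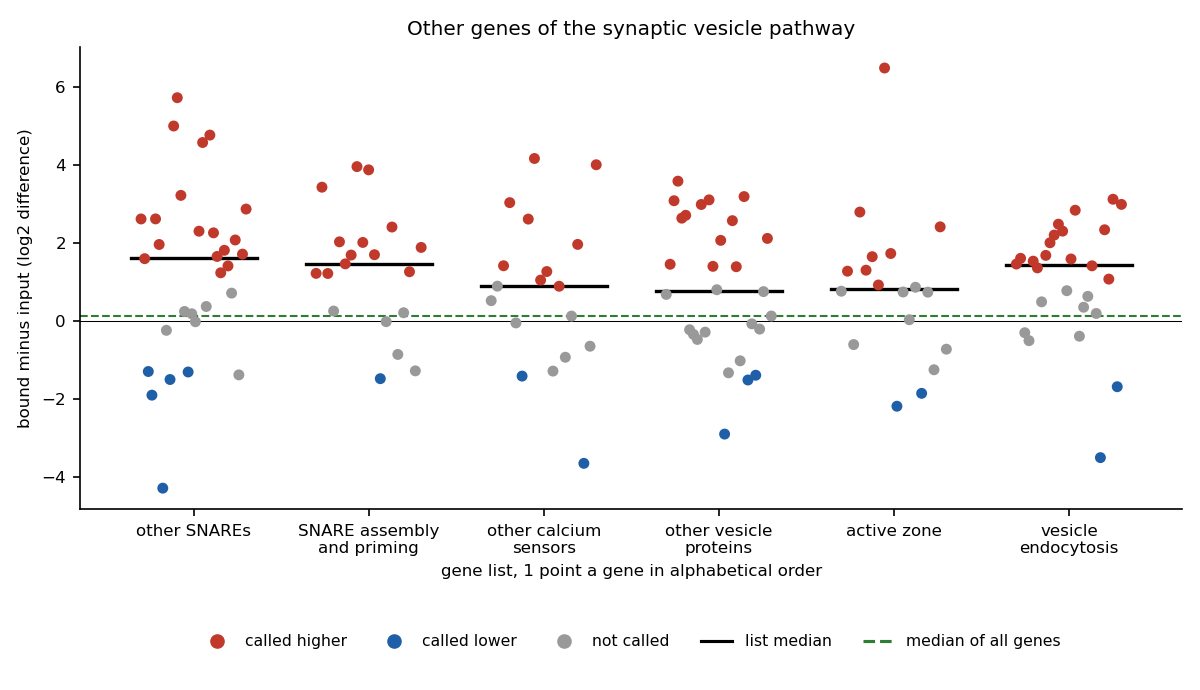
Log2 difference of bound minus input for the other genes of the pathway, with 1 point for each of 139 genes in 6 lists; red, blue and grey mark genes called higher, called lower and not called with limma, black bars are list medians and the dashed green line is the median of all 13055 genes, 0.12. At the deposited scaling, every list median lies above the green line, from 0.78 for other vesicle proteins to 1.62 for other SNAREs.

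Markers of the cells that brain RNA can hold were read in the same way, beside 31.6% called higher and 24.8% called lower over all 13055 genes. Of 12 neuronal markers, 10 were called higher and 0 lower, of 9 astrocyte markers 6 and 0, of 7 oligodendrocyte markers 5 and 0, and of 6 microglial markers 3 and 0. Endothelial markers had 1 higher and 1 lower of 5, red blood cell markers 1 and 2 of 3, and markers of other tissues 0 and 2 of 5. Tubb3, Mag, Tyrobp, Slco1a4 and Alas2, all called higher, had input signals under the filter level, so they were kept through their bound signals. Slco1a4 and Alas2 were the only rises in their lists. Alb, called lower, was kept through its input signal. These calls are thus part of how the genes were kept. Summed signals of the neuronal markers were 26099 to 28685 on the bound arrays and 7184 on input, and those of the astrocyte markers 27749 to 35500 and 7317. The oligodendrocyte markers summed to 24600 to 69935 on the bound arrays, on either side of the 49333 on input. The glial markers that were called were thus all higher. Those not called ran from -1.43 for Aif1 to 0.66 for Aldh1l1. The part of glia in the result was not tested. Each array read RNA pooled over the cells of the tissue, so the values do not give the cells a transcript came from.

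The genes whose pattern over the 5 arrays was most like the mean pattern of the members were Snrpe, Coq5, Clcn4, Tmppe and Ddit4l. Likeness was the Euclidean distance between log2 values centred on their own mean over the 5 arrays, and it ran from 0.043 for Snrpe to 0.121 for Ddit4l. The brightest probe sets of the members themselves lay farther from their mean, from 0.444 for Syn2 to 2.36 for Stx1a. The mean pattern therefore described no single member closely.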

How the data were processed

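The authors deposited signal intensity values for 5 arrays, and MAS5 is the method named in the submitters' processing notes, with its version not given in the sources used here. Before the log2 step, 4.18 was added to each signal as a pseudocount, a value set at the overall median (41.8) over 10. Of 45037 non-control probe sets, those whose mean log2 signal reached the 40th percentile were kept (27022). Gene symbols came from the platform annotation, and the Entrez identifiers of all 8 genes matched RefSeq's gene table. A single limma 3.58.1 model in R 4.3.3 held the 3 group means, with eBayes and a trend (2 residual and 10.9 prior degrees of freedom). P-values were adjusted by Benjamini-Hochberg over all kept probe sets, and the threshold was 0.05. No depth exists for arrays, and their number limits the precision.

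Every member probe set is named. In each pathway list, up to 3 genes per direction are named, by the size of the bound minus input difference, among called genes whose bound arrays did not overlap input. The 5 nearest patterns are also named. The members and lists were chosen with earlier results of these data known. Replicate numbers follow sample order. Alternatives covered the pseudocount, filter, scaling, variance model, blocks and left-out arrays.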

Additional observations from a re-analysis of the deposited data

How the results depend on the processing

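Of the settings tried, scaling to the hybridisation controls changed the counts most. Called members went from 17 to 0 for bound minus input, from 15 to 0 for deiminated minus input and from 17 to 0 for non-deiminated minus input. Of all 27022 probe sets, that scaling called 101, 0 and 0. Under that scaling the differences from input that had been negative were 3.90 for Stx1a 1437390_x_at, 2.69, 2.71 and 2.61 for Syt1 1431191_a_at, 1438282_at and 1421990_at, 5.37 and 3.35 for Cplx2 1421477_at and 1436383_at, and 2.86 for Syn2 1440762_at. With median centring, Stx1a 1437390_x_at had 0.0114 and Cplx2 1421477_at 1.49. Under the other settings the count for bound minus input was 12 to 17, for deiminated minus input 10 to 17 and for non-deiminated minus input 13 to 17. The whole array moved as well. Quantile normalisation gave 12, 10 and 13 of 19 members, beside 16278, 15382 and 15222 of all 27022 probe sets. With the hybridisation control level as a covariate, 17 members were called in each, beside 18320, 17350 and 17218 of all probe sets. With each bound array left out, Cplx2 1421477_at ran from -0.54 to 0.38 for bound minus input.

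For deiminated minus non-deiminated, limma called 0 members under every alternative run, and signs near 0 turned. With median centring, Vamp2 1420834_at had 0.0263, Stx1a 1448366_at 0.0078 and Cplx2 1421477_at 0.0023, and the last had 0.0137 after quantile normalisation. With each bound array left out, the ranges were -0.33 to 1.02 for Snap25 1447763_at, -0.17 to 0.0534 for Vamp2 1420834_at, -0.26 to 0.61 and -0.35 to 0.19 for Stx1a 1437390_x_at and 1448366_at, and -0.0251 to 0.41 and -0.25 to 2.30 for Syt1 1433884_at and 1421990_at. For Cplx2 they were -0.999 to 0.83 for 1421477_at, -0.0346 to 0.21 for 1455672_s_at and -0.55 to 0.10 for 1436383_at. Each of these leaves 1 array in a group, assumed to vary like the others. The labels number no array as a replicate within its group, though the REFP2 titles carry sample numbers. The titles name MA-Brent-1 on 1 array and REFP2 on 1 array of each bound group. With that name as a block, limma called 0 members and 0 of all 27022 probe sets for deiminated minus non-deiminated. For bound minus input it called 15 of the 19 members, beside 14080 of all probe sets. The 2 lost were Stx1a 1437390_x_at and Syp 1448280_at.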
